A study of Mus musculus with 9 samples.

Results

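The proteasome genes of mouse gastrocnemius, a fast hindlimb muscle, were compared between animals given ammonium acetate and animals given saline. Members were the protein-coding genes whose symbol was Psma, Psmb, Psmc, Psmd or Psme followed by a number, without the 3 immunoproteasome genes Psmb8, Psmb9 and Psmb10. This gave 40 of the 35275 genes in the deposited table: 16 genes of the 20S core, 17 of the 19S cap, 3 chaperones of cap assembly and 4 activators. The mice were wild type, on a C57BL/6J background, and 8 to 10 weeks old. Each carried an implanted osmotic pump for 4 weeks, filled with phosphate-buffered saline (PBS) or with ammonium acetate, the dose being 2.5 mmol per kg daily. There were 4 PBS libraries, numbered 4, 5, 7 and 8, and 5 ammonium acetate libraries, numbered 4 to 8. Whether every library came from its own mouse is not stated, so errors and p-values describe variation among libraries, which may be technical. No label gives the sex, and the pump adds acetate as well as ammonium, with PBS as the only control.

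The proteasome degrades proteins that carry ubiquitin chains. Its 20S core is a barrel of alpha rings, which gate the entrance, and beta rings, which hold the cutting sites. The 19S cap recognises ubiquitin, removes it and unfolds the substrate with a ring of ATPases, while the activators PA28 (Psme1 to Psme3) and PA200 (Psme4) open the core without the cap. In muscle this system carries out much of the breakdown of myofibrillar proteins, and genes of the core and cap are known to be raised together by the transcription factor Nfe2l1 (Nrf1) when proteasome activity is short. That factor binds antioxidant response elements, while many housekeeping promoters hold binding sequences of ETS factors or a CCAAT box.

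Upstream sequences were read from RefSeq's promoter table (GRCm38.p6, the assembly behind mm10), which covers 250 bases before to 50 bases after each start and matched 33 of the 40 members with 36 windows. Psma8, Psmb1, Psmb2, Psmb7, Psmc3, Psmd3 and Psmd7 had no entry. Each window was searched on both strands for the antioxidant response element core TGACNNNGC, for CCAAT and for the ETS core CCGGAAG, which reads CTTCCGG on the other strand. The sequences below are the 80 bases just before the start, written 5′ to 3′ on the gene's strand, with the motif in capitals. Starts are those of RefSeq and can lie some bases away from the ends listed in the deposited table. Psmb5 and Psmb6 are shown because they encode cutting subunits of the core and are the core genes with an antioxidant response element core. The cap genes Psmc1, Psmc2, Psmd2, Psmd6, Psmd11 and Psmd12 are shown because the ETS core lies in them within 45 bases before the start. Psmd13 also holds it, but there it crosses the start, so it is not shown. The stretches lie at chr14:54617996-54618075 on the minus strand (Psmb5), chr11:70525277-70525356 on the plus strand (Psmb6), chr12:100110122-100110201 on the plus strand (Psmc1) and chr5:21786667-21786746 on the plus strand (Psmc2, the later of its listed starts). Those of Psmd2, Psmd6, Psmd11 and Psmd12 lie at chr16:20651572-20651651 (plus), chr14:14120946-14121025 (minus), chr11:80428535-80428614 (plus) and chr11:107479448-107479527 (plus).
Psmb5: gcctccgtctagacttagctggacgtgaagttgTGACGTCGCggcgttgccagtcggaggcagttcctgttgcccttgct
Psmb6: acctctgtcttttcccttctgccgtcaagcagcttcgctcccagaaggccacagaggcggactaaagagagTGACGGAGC
Psmc1: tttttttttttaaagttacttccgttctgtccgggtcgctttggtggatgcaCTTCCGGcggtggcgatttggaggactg
Psmc2: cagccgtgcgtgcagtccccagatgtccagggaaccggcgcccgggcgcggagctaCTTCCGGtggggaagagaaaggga
Psmd2: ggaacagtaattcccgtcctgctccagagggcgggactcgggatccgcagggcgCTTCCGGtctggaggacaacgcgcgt
Psmd6: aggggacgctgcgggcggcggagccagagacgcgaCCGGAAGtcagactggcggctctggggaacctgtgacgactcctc
Psmd11: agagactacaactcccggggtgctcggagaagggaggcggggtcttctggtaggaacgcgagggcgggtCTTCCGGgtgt
Psmd12: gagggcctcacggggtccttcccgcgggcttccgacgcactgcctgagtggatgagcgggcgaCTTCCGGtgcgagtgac

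The share of windows with the ETS core or CCAAT varied by class, on few windows. The ETS core was in 10 of 15 cap windows (66.7%, from 9 of 14 genes), 1 of 13 core windows (7.69%) and 2 of 5 activator windows (40%), against 8.86% of all 32851 promoter windows and 17.3% of the 10767 windows of genes tested here. CCAAT was in 7 of 13 core windows (53.8%) and 4 of 15 cap windows (26.7%), against 37.4% of all windows. The antioxidant response element core was in 6 of the 36 member windows (16.7%), namely those of Psmb5, Psmb6, Psmc6, Psmd12, Psmd9 and Psme4, against 12.4% of all windows and 14.5% of those of tested genes. By class, the antioxidant response element core was in 2 of 13 core windows (15.4%), 2 of 15 cap windows (13.3%) and 1 of 5 activator windows (20%). No test was made of these shares. A match describes the letters of the window and says nothing of binding in this muscle.

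Levels are given as FPKM, fragments scaled to gene length and to the total of counted fragments, so genes of different length can be set side by side. Of the 40 members, 38 had a mean of at least 0.5 FPKM over the 9 libraries and were tested. Psmb11, the cutting subunit of the thymus proteasome, was listed at 0 in all 9 libraries, where 3 reads would have given 0.0169 to 0.0283 FPKM. Psma8, the alpha subunit of the testis proteasome, had 0 to 9 reads per library, with 0, 0.0928, 0.0283 and 0.0706 FPKM in the PBS libraries and 0.0161, 0, 0.207, 0 and 0 FPKM in the ammonium acetate libraries. The forms known from germ cells and thymus were therefore at or near the limit of counting.

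The tested members ranged from 5.58 FPKM (Psmd5) to 184 FPKM (Psmb7) in their mean over all libraries, with a median of 55.8 FPKM, against 4.79 FPKM for the median tested gene. Mean levels of core subunits spanned 28.9 FPKM (Psma5) to 184 FPKM (Psmb7), although each subunit is present in the same number in the assembled barrel. Cap subunits spanned 31.7 FPKM (Psmc2) to 172 FPKM (Psmd8). The cap chaperones were the least abundant class at 5.58 to 7.72 FPKM. Among the activators, Psme4 had 54.9 FPKM, Psme3 and Psme2 lower levels, and Psme1 15.9 FPKM. The tested members had 169 to 16421 reads per library, a counting error of 7.69% at the fewest reads (Psmd10) and 0.780% at the most (Psme4).

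**Figure D1:**
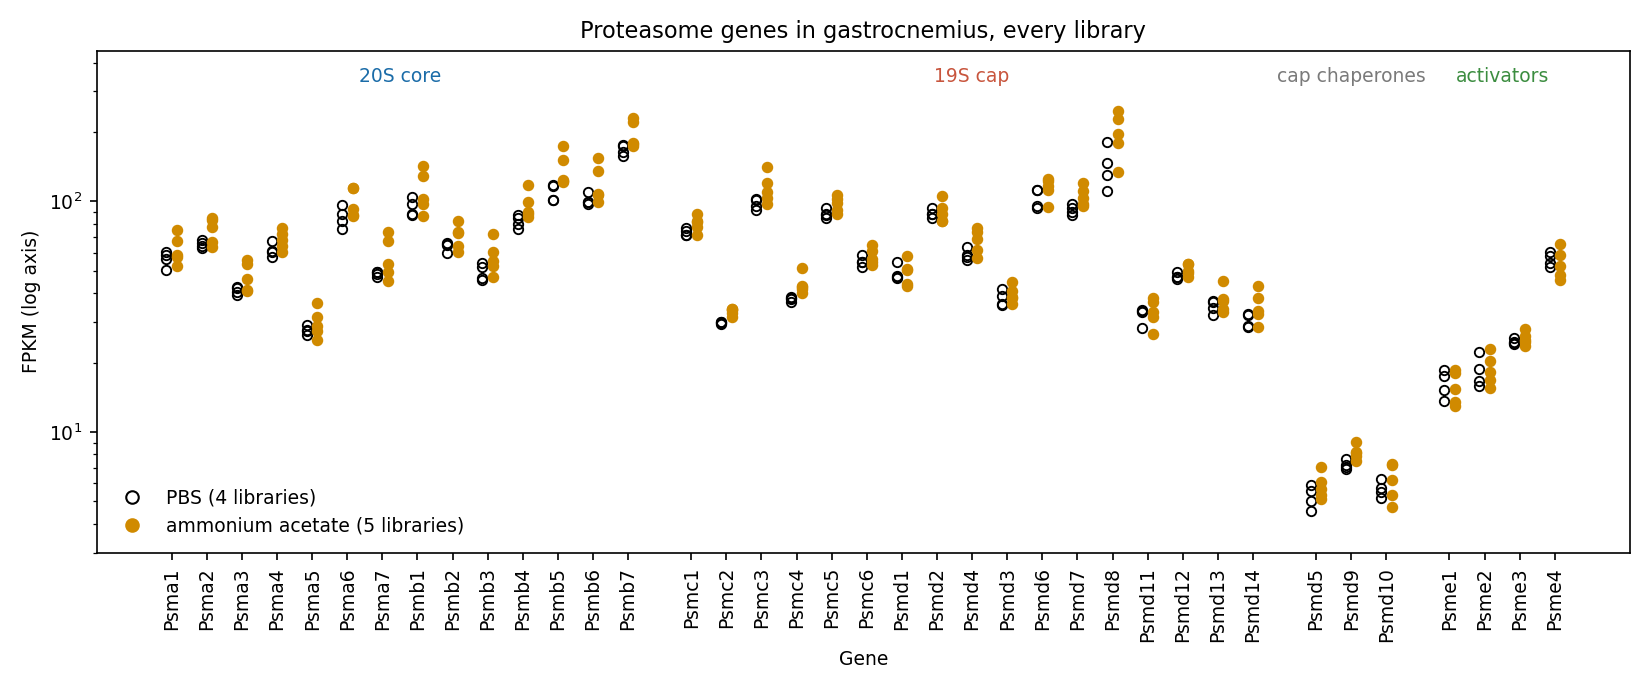
FPKM on a log axis (y axis) for the 38 tested members by class (x axis), with an open circle for each of the 4 PBS libraries and a filled circle for each of the 5 ammonium acetate libraries. Psmb5, Psmc2 and Psmc4 have no overlap between the groups, and for all other tested members, the activators included, the groups overlap.

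No gene of the 11337 tested passed an adjusted p of 0.05 (0.0% called) in limma on log2(FPKM + 0.5) with Benjamini-Hochberg adjustment, and no proteasome member did. The smallest adjusted p of any member was 0.527. At an unadjusted p under 0.05, limma gave 972 genes (8.57%), of which 364 (3.21%) were higher and 608 (5.36%) lower with ammonium acetate. Members at that level were 3 of 38 (7.89%), Psmb5, Psmd8 and Psmc4, each higher. The voom alternative on recovered reads also called 0 genes after adjustment, with 924 (8.15%) at an unadjusted p under 0.05 and 273 (2.41%) higher, among them 2 members.

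Core and cap genes had small estimates above 0, none past the adjusted threshold, and the activators lay around 0. The log2 fold change, ammonium acetate over PBS, was above 0 for 36 of 38 members, against 43.9% of all genes tested. The members are short (median 1540.5 bases), and the share of all genes above 0 fell with gene length. That share was 74.5% up to 1000 bases, 74.0% from 1000 to 1500, 62.3% from 1500 to 2000 and 11.8% above 5000 bases. The median log2 fold change was 0.15 over the members and −0.03 over all genes, and the members ran from −0.06 (Psme4) to 0.46 (Psmd8). The 95% intervals of the members lay between −0.35 (the lower end for Psme1) and 0.86 (the upper end for Psmd8). By class, the core was highest with 14 of 14 above 0 and a median of 0.20, followed by the cap with 17 of 17 and 0.14 and the chaperones with 3 of 3 and 0.14. The activators had 2 of 4 above 0 and a median of −0.01. The difference between classes was not tested, since members of a complex are not independent samples. In whole muscle, fewer cells of a type and less RNA per cell cannot be told apart.

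**Figure D2:**
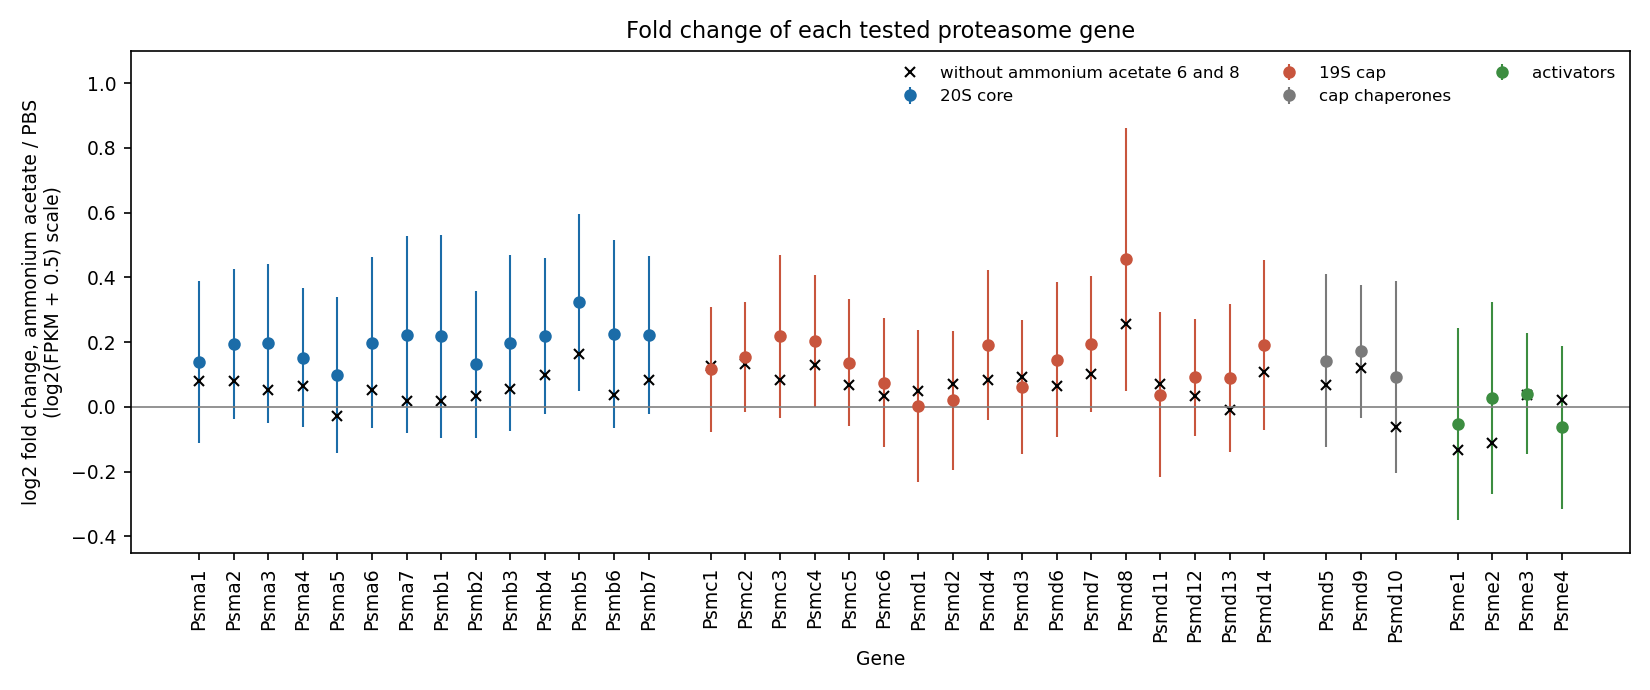
Log2 fold change of each tested member, ammonium acetate over PBS, on the log2(FPKM + 0.5) scale (y axis), by gene and class (x axis), where points are estimates, lines their 95% intervals from limma (4 PBS and 5 ammonium acetate libraries) and crosses the estimates without ammonium acetate libraries 6 and 8. All 14 core and 17 cap points lie above 0, the 4 activators lie between −0.06 and 0.04, and the core crosses lie closer to 0, with a median of 0.05.

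The members' levels varied between libraries of the ammonium acetate group. In the order PBS 4, 5, 7 and 8, the median log2 deviation of the core from the PBS mean was 0.06, 0.04, −0.05 and −0.05, and in ammonium acetate libraries 4 to 8 it was 0.01, 0.13, 0.38, 0.04 and 0.45. The cap had 0.01, −0.01, 0.07 and −0.03 in PBS and 0.15, 0.12, 0.18, −0.03 and 0.26 with ammonium acetate. The activators had −0.06, 0.01, −0.08 and 0.13 in PBS and −0.12, −0.09, −0.02, 0.08 and 0.14 with ammonium acetate. Ammonium acetate libraries 5, 6 and 8 were above the PBS range in both core and cap, library 4 in the cap alone and library 7 in neither. The activators overlapped between the groups.

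**Figure D3:**
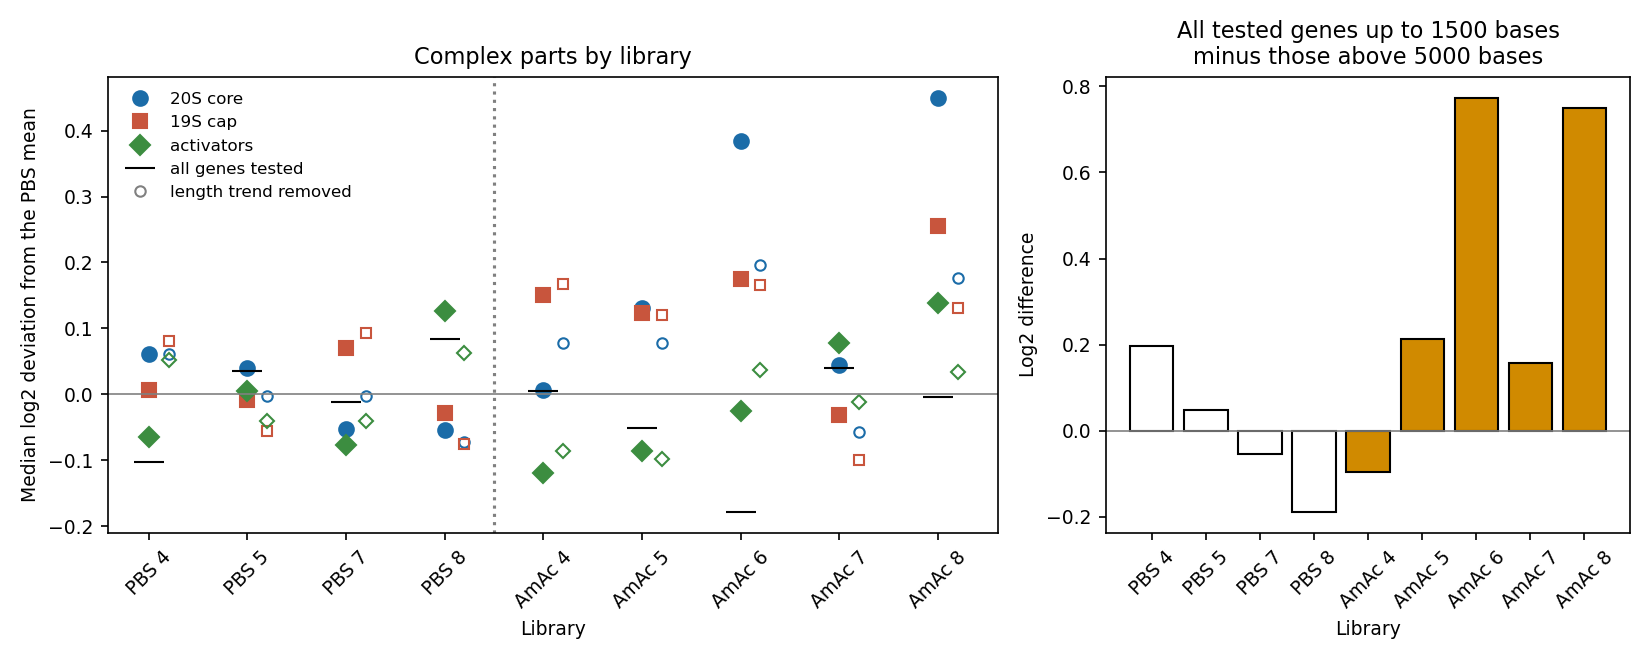
Left, median log2 deviation from the PBS mean (y axis) in each library (x axis; AmAc is ammonium acetate) for the core, the cap, the activators and all genes tested, with small open symbols after removal of the trend on gene length; right, bars of the log2 difference between genes of up to 1500 bases and genes above 5000 bases. AmAc 6 and 8 reach 0.38 and 0.45 in the core and are also the libraries in which the length measure reaches 0.77 and 0.75.

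Other values moved with those libraries. The median deviation of genes of up to 1500 bases less that of genes above 5000 bases was 0.20, 0.05, −0.05 and −0.19 in the PBS libraries and −0.10, 0.21, 0.77, 0.16 and 0.75 in ammonium acetate libraries 4 to 8. Core genes are short, with a median gene length of 1162.5 bases against 1883 for the cap and 2325 for the activators. Over all genes the median log2 fold change ran from 0.17 for genes of up to 1000 bases to −0.22 for genes above 5000 bases. Across the 38 members, log2 fold change against log2 length had Pearson r −0.48 and Spearman rho −0.47, and across all 11337 genes r −0.46 and rho −0.49, where the genes share the same libraries and are not independent. Within their own range of length, 32 of 38 members lay above the median of all genes, 12 of 14 in the core, 16 of 17 in the cap, 2 of 3 chaperones and 2 of 4 activators.

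With the trend on gene length removed in each library, 33 of 38 members were above 0 against 51.6% of all genes, and 2 (Psmb5 and Psmc2) were higher at an unadjusted p under 0.05, against 3.87% of all genes. The median was then 0.09 for the core, 0.07 for the cap, 0.17 for the chaperones and −0.02 for the activators, with 0.01 for all genes. Without ammonium acetate libraries 6 and 8, 33 of 38 were above 0 against 49.6% of all genes, with medians of 0.05 for the core, 0.08 for the cap, 0.07 for the chaperones and −0.04 for the activators, and 0 members at an unadjusted p under 0.05 (1.23% of all genes were higher at that level). The core was therefore 0.20 with all libraries and 0.05 without the pair, so most of its estimate rested on those libraries. They had the highest core medians (0.38 and 0.45), so leaving them out was bound to lower the core. The cap moved less, from 0.14 to 0.08. The part of gene length in the differences beyond these values was not tested.

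**Figure D4:**
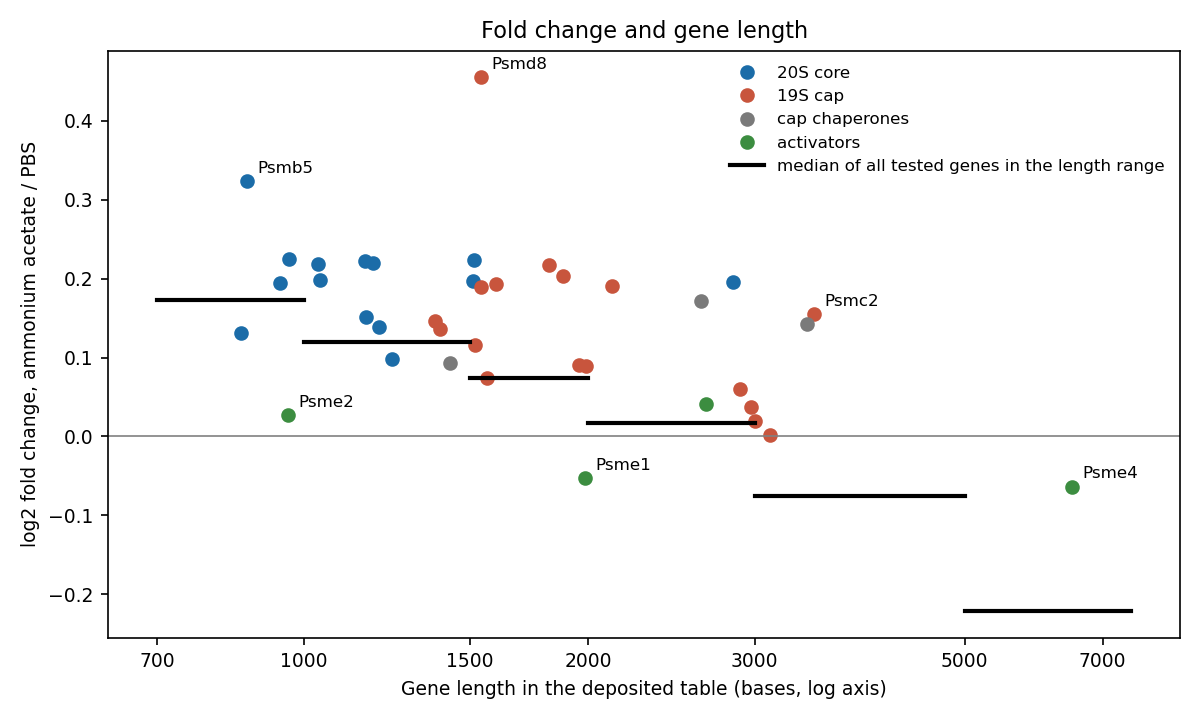
Log2 fold change, ammonium acetate over PBS (y axis), against gene length in bases on a log axis (x axis), with a point for each tested member coloured by class and black lines for the median of all tested genes in each range of length. Of the 38 members, 32 lie above the median of their range, which runs from 0.17 in the shortest range to −0.22 in the longest.

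Marker lists showed muscle as labelled, and other cell types at lower sums. Summed FPKM of 8 muscle fibre genes was 63105 to 73978 in PBS and 64794 to 90842 with ammonium acetate, highest in libraries 6 (90842) and 8 (81629). Log2 fold changes were above 0 for 4 of these 8 genes. The 10 endothelial markers summed to 115 to 129 FPKM in PBS and 62.6 to 120 FPKM with ammonium acetate, lowest in libraries 6 (62.6) and 8 (73.4), with 0 of 10 above 0. Fibro-adipogenic progenitor markers summed to 444 to 1085 and 480 to 710 FPKM (0 of 9 above 0), macrophage markers to 40.7 to 106 and 58.4 to 79.0 (0 of 8), erythroid markers to 167 to 221 and 108 to 164 (0 of 5), smooth muscle markers to 120 to 164 and 108 to 159 (2 of 6). Neutrophil markers summed to 0.818 to 4.32 and 2.80 to 7.43 FPKM, and skin keratin genes to 0.491 to 0.709 and 0.725 to 62.0 FPKM, the last in library 5 (2 of 3 and 5 of 5 tested above 0). No listed marker found in the table was at 0 in all libraries. The part of cell composition in the proteasome differences was not tested.

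The beta ring holds the cutting sites of the core, and its 7 tested genes had a median log2 fold change of 0.22. Psmb5, the chymotrypsin-like subunit that bortezomib inhibits (chr14:54614120-54617995, minus strand, mm10), measured 117, 118, 102 and 102 FPKM in PBS libraries 4, 5, 7 and 8 and 122, 121, 151, 124 and 173 FPKM in ammonium acetate libraries 4 to 8. Every ammonium acetate library was above every PBS library. The means were 109.5 ± 9.13 (SD, n = 4) and 138 ± 23.1 (SD, n = 5) FPKM, a log2 difference of 0.32 with a 95% interval of 0.05 to 0.60 and an adjusted p of 0.527 (limma). It was 0.18 with the length trend removed and 0.16 without libraries 6 and 8. Its upstream stretch is the first printed above, with the antioxidant response element core 47 bases before the start.

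Groups that did not overlap were rare. With ammonium acetate, 142 of all genes (1.25%) were higher in every library than in any PBS library and 99 (0.873%) lower. Among the members 3 of 38 (7.89%) were higher in this way, Psmb5, Psmc2 and Psmc4, and 0 lower. The gaps were narrow. The highest PBS and lowest ammonium acetate libraries had 118 and 121 FPKM for Psmb5, 30.0 and 31.4 FPKM for Psmc2 and 38.6 and 39.999 FPKM for Psmc4.

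Psmb6, the caspase-like subunit, measured 109.9, 99.7, 99.7 and 97.7 FPKM in PBS and 99.2, 106, 136, 108 and 154 FPKM with ammonium acetate. Its groups overlapped, with libraries 6 and 8 above the PBS range, and the log2 difference was 0.23 with an interval of −0.06 to 0.51 (limma adjusted p 0.528). Psmb7, the trypsin-like subunit and the most abundant member, measured 175, 174, 164 and 158 FPKM in PBS and 174, 178, 221, 179.9 and 230.5 FPKM with ammonium acetate. Library 4 alone lay inside the PBS range, and the log2 difference was 0.22 with an interval of −0.02 to 0.47 (limma adjusted p 0.527). Without libraries 6 and 8 it was 0.04 for Psmb6 and 0.08 for Psmb7.

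Psmb4, a structural beta subunit, measured 84.9, 87.6, 79.9 and 75.8 FPKM in PBS and 85.3, 88.1, 99.7, 89.97 and 118 FPKM with ammonium acetate. Again library 4 alone was inside the PBS range, and the log2 difference was 0.22 (interval −0.02 to 0.46, limma adjusted p 0.527). The other structural subunits Psmb1, Psmb2 and Psmb3 had log2 differences of 0.22, 0.13 and 0.20.

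The alpha ring forms the gate, and its 7 tested genes had a median log2 fold change of 0.19. Psma2 measured 67.9, 66.2, 62.6 and 64.2 FPKM in PBS and 63.5, 77.4, 84.7, 66.9 and 83.4 FPKM with ammonium acetate. Libraries 5, 6 and 8 were above the PBS range and libraries 4 and 7 within it, with a log2 difference of 0.19 (interval −0.04 to 0.43, limma adjusted p 0.527). Psma5, the least abundant tested core gene, measured 27.5, 29.2, 26.3 and 27.5 FPKM in PBS and 28.9, 27.3, 36.2, 25.2 and 31.7 FPKM with ammonium acetate. Its highest and lowest libraries were both from the ammonium acetate group, and its log2 difference was 0.10 (interval −0.14 to 0.34), or −0.03 without libraries 6 and 8. Psma1, Psma3, Psma4, Psma6 and Psma7 had log2 differences of 0.14, 0.20, 0.15, 0.20 and 0.22. Psma3 overlaps an antisense gene, 3110056K07Rik, over 4733 bases, and since no source used here gives the strand setting, reads of the pair cannot be told apart.

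The base of the cap docks on the core and holds the ATPase ring, Psmc1 to Psmc6, whose genes had a median log2 fold change of 0.15. Psmc2 (chr5:21785283-21803787, plus strand) had the smallest coefficient of variation of the 38 members in both groups, with 29.9, 29.8, 30.0 and 29.4 FPKM in PBS and 33.8, 32.9, 34.0, 31.4 and 34.1 FPKM with ammonium acetate. The groups did not overlap, and all 5 ammonium acetate libraries lay within a narrow band above PBS. Means were 29.8 ± 0.279 (SD, n = 4) and 33.2 ± 1.14 (SD, n = 5) FPKM, a log2 difference of 0.16 with an interval of −0.01 to 0.32 and a limma adjusted p of 0.527. The difference was 0.21 with the length trend removed and 0.13 without libraries 6 and 8. Its coefficient of variation in PBS, 0.936%, was below the counting error of 1.52% to 1.95% for its reads, so this narrow spread cannot be taken as the spread of the muscle, and limma draws part of its estimate of spread from other genes.

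Psmc4 measured 38.0, 37.7, 36.6 and 38.6 FPKM in PBS and 41.6, 42.3, 43.0, 39.999 and 51.3 FPKM with ammonium acetate. No library overlapped, and library 8 stood above the others. The log2 difference was 0.20 (interval 0.00 to 0.41, limma adjusted p 0.527), and 0.13 without libraries 6 and 8. Psmc1, Psmc3, Psmc5 and Psmc6 had log2 differences of 0.12, 0.22, 0.14 and 0.07. Psmc3 overlaps Slc39a13 on the other strand over 4579 bases, so its value is uncertain in the same way as that of Psma3.

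The large base scaffolds Psmd1 and Psmd2, chosen for description after their values were seen, had log2 differences of 0.00 (interval −0.23 to 0.24) and 0.02 (interval −0.19 to 0.23). Without libraries 6 and 8 they were 0.05 and 0.07, against a median of 0.08 for the base, and with the length trend removed 0.04 and 0.05, against 0.05. Psmd1 measured 47.4, 46.6, 54.8 and 47.2 FPKM in PBS and 57.9, 50.9, 50.5, 44.0 and 43.0 FPKM with ammonium acetate, and Psmd2 88.5, 84.7, 94.1 and 87.7 against 105.5, 93.3, 88.5, 82.1 and 82.2 FPKM. Both were highest in ammonium acetate library 4 and lowest in libraries 7 and 8. Of the 14 core genes, 10 were highest in library 8, against 1798 of the 5213 genes at or above the lowest member mean. Psmc1, Psmd3 and the activator Psme4 were also highest in library 4, which made 5 of 38 members (13.2%, against 12.5% of all genes at or above the lowest member mean), while 25 were highest in library 8 and 7 in library 6. Psmd4, the ubiquitin receptor of the base, measured 55.7, 57.6, 63.7 and 58.4 FPKM in PBS and 61.8, 68.6, 76.5, 57.0 and 74.0 FPKM with ammonium acetate. Its groups overlapped, with a log2 difference of 0.19 (interval −0.04 to 0.42, limma adjusted p 0.527).

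The lid removes ubiquitin chains, and its 8 genes had a median log2 fold change of 0.12. Psmd8, a lid subunit (chr7:29174188-29180701, minus strand), had the largest estimate of the members and the widest spread in the PBS group. It measured 147, 129.7, 182 and 111 FPKM in PBS and 179, 196, 228, 134 and 246 FPKM with ammonium acetate. Libraries 5, 6 and 8 were above the PBS range, and libraries 4 and 7 within it. Means were 142 ± 30.2 (SD, n = 4) and 196 ± 43.7 (SD, n = 5) FPKM, a log2 difference of 0.46 with an interval of 0.05 to 0.86 and a limma adjusted p of 0.527. It was 0.38 with the length trend removed and 0.26 without libraries 6 and 8.

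Psmd14, the deubiquitinase of the lid, measured 32.1, 28.5, 32.5 and 28.8 FPKM in PBS and 32.5, 38.1, 33.4, 28.5 and 43.1 FPKM with ammonium acetate. Its groups overlapped, with a log2 difference of 0.19 (interval −0.07 to 0.45, limma adjusted p 0.532). Psmd7, its partner in the lid, measured 87.0, 93.3, 97.4 and 90.1 FPKM in PBS and 103.5, 97.4, 111, 95.4 and 120.0 FPKM with ammonium acetate, a log2 difference of 0.19 (interval −0.02 to 0.40, limma adjusted p 0.527). Libraries 4, 6 and 8 were above the PBS range. Psmd3, Psmd6, Psmd11, Psmd12 and Psmd13 had log2 differences of 0.06, 0.15, 0.04, 0.09 and 0.09. Psmd13 overlaps Sirt3 on the other strand over 342 bases.

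The cap chaperones Psmd5, Psmd9 and Psmd10 hold parts of the base during assembly and leave the finished particle. Psmd9 measured 7.18, 7.61, 6.91 and 7.02 FPKM in PBS and 7.52, 7.86, 8.21, 8.14 and 9.05 FPKM with ammonium acetate, with library 4 alone inside the PBS range. Its log2 difference was 0.17 (interval −0.03 to 0.38, limma adjusted p 0.527). Psmd5 measured 4.53, 5.53, 5.003 and 5.91 FPKM in PBS and 5.33, 5.10, 5.68, 6.08 and 7.05 FPKM with ammonium acetate. Its groups overlapped with a log2 difference of 0.14 (interval −0.12 to 0.41, limma adjusted p 0.601), and Psmd10 had 0.09.

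The activators open the core without ATP. Psme4 (PA200), the longest member at 6491 bases, measured 54.0, 51.8, 60.6 and 57.9 FPKM in PBS and 65.2, 58.5, 52.3, 48.2 and 45.8 FPKM with ammonium acetate. Library 4 was the highest of all 9 and libraries 7 and 8 the lowest, so the groups overlapped on both sides. The log2 difference was −0.06 (interval −0.31 to 0.19, limma adjusted p 0.803), but 0.15 with the length trend removed and 0.02 without libraries 6 and 8, so its sign was not settled. The ratio of Psme4 to the mean core level was 0.747 ± 0.0837 (SD, n = 4) in PBS and 0.631 ± 0.163 (SD, n = 5) with ammonium acetate, lowest in library 8 (0.435) and highest in library 4 (0.857).

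Psme1 (PA28 alpha) and Psme2 (PA28 beta) form a ring that is known to be raised by interferon. Psme1 measured 15.2, 17.5, 13.7 and 18.5 FPKM in PBS and 12.9, 13.6, 15.3, 18.0 and 18.6 FPKM with ammonium acetate. Psme2 measured 15.8, 18.8, 16.6 and 22.3 FPKM in PBS and 15.5, 16.8, 20.2, 18.3 and 22.9 FPKM with ammonium acetate. Both overlapped between groups, with PBS library 8 the highest of the PBS libraries, and log2 differences of −0.05 (interval −0.35 to 0.24, limma adjusted p 0.859) and 0.03 (interval −0.27 to 0.32, limma adjusted p 0.938). The near copy Psme2b was listed at 0.572 to 1.44 FPKM and may share reads with Psme2, whose value is uncertain for that reason. Psme3 (PA28 gamma), the nuclear activator, measured 24.7, 24.1, 24.2 and 25.7 FPKM in PBS and 24.5, 23.6, 25.1, 28.0 and 26.0 FPKM with ammonium acetate. Its log2 difference was 0.04 (interval −0.14 to 0.23, limma adjusted p 0.831), and its groups overlapped.

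The classes also differed in how their sums ran across libraries. Summed core FPKM was 1117, 1077, 1019 and 1005 in PBS and 1066, 1142, 1365, 1109 and 1474 with ammonium acetate. Summed cap FPKM was 1107, 1074, 1179 and 1038 in PBS and 1238, 1232, 1325, 1073 and 1363 with ammonium acetate. The mean core level over the mean cap level was 1.23, 1.22, 1.05 and 1.18 in PBS and 1.05, 1.13, 1.25, 1.25 and 1.31 with ammonium acetate. The groups overlapped, with PBS library 7 and ammonium acetate library 4 lowest and ammonium acetate library 8 highest. Summed activator FPKM was 109.8 to 124 in PBS and 112 to 118 with ammonium acetate.

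Members varied more among ammonium acetate libraries than among PBS libraries. The coefficient of variation of FPKM was higher with ammonium acetate for 37 of 38 members (97.4%), against 3832 of 5213 genes (73.5%) at or above the lowest member mean. Its median over members was 6.13% in PBS and 13.4% with ammonium acetate, against 10.1% and 15.1% over those genes. The highest library was from the ammonium acetate group for 38 of 38 members, against 69.7% of those genes, and the lowest from the PBS group for 27 of 38 (71.1%), against 46.0%. Libraries 6 and 8, in which the length measure was high, held 32 of the 38 highest values (84.2%), against 44.9%. The genes compared were not matched for length, and the members are short (median 1540.5 bases, against 3015 for all genes tested).

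Genes around the proteasome were read from lists. All 5 tested assembly factors were above 0 (median 0.23), against 43.9% of all genes and 74.0% of those of 1000 to 1500 bases. In limma 1 of them was higher at an unadjusted p under 0.05, against 3.21% of all genes. The assembly factors are short genes (median 1044 bases). Their median log2 fold change was 0.10 with the length trend removed and 0.08 without libraries 6 and 8, with 0 at that level in both. Psmg2, an alpha ring chaperone, had 17.0 ± 0.864 FPKM in PBS (SD, n = 4) and 19.98 ± 1.95 FPKM with ammonium acetate (SD, n = 5), a log2 difference of 0.23. Pomp, which guides beta subunits onto the ring, had 80.6 ± 5.59 and 93.3 ± 11.6 FPKM, a log2 difference of 0.20, and neither passed the limma adjusted threshold. Of 10 proteins associated with the cap, 7 were above 0 (median 0.06), against 43.9% of all genes, and 1 was higher at an unadjusted p under 0.05, against 3.21%. With the length trend removed 3 were higher at that level, against 3.87% of all genes, and without libraries 6 and 8 there were 0, against 1.23%. Adrm1, a ubiquitin receptor, had 20.98 ± 1.94 and 25.8 ± 2.73 FPKM (log2 difference 0.29), and Zfand5, which is known to stimulate proteasome activity in muscle, had 84.2 ± 10.6 and 99.3 ± 9.92 FPKM (0.24). The largest negative estimates of that list were −0.11 (AI314180, a symbol for Ecm29) and −0.09 (Usp14, a deubiquitinase), or 0.00 and 0.01 without libraries 6 and 8.

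Of 12 regulators and shuttles tested, 4 were above 0, against 43.9% of all genes, with a median of −0.06 and none at an unadjusted p under 0.05. These are long genes, with a median of 3358 bases. With the length trend removed 6 were above 0 (median −0.01, against 0.09 for the core), and without libraries 6 and 8 there were 7 (median 0.03, against 0.05 for the core). In each of these fits 1 was higher at an unadjusted p under 0.05 in limma, against 3.87% and 1.23% of all genes. The difference from the core was not tested. Nfe2l1, the factor that is known to drive subunit genes, had 174 ± 28.6 FPKM in PBS (SD, n = 4) and 154 ± 17.1 FPKM with ammonium acetate (SD, n = 5), a log2 difference of −0.17, and Nfe2l2 (Nrf2) had 16.6 ± 3.01 and 15.8 ± 1.89 FPKM (−0.06). Ddi2, the protease that activates Nfe2l1, had 6.49 ± 1.22 and 4.91 ± 1.08 FPKM (−0.37), and Vcp, which unfolds ubiquitinated proteins, had 112 ± 6.78 and 98.6 ± 20.8 FPKM (−0.21). With the length trend removed the estimates were −0.04 for Nfe2l1, −0.08 for Ddi2 and −0.16 for Vcp. Without libraries 6 and 8 they were −0.06, −0.16 and −0.01 in that order. The shuttle receptor Rad23b had a log2 difference of 0.15, with 0.22 once the length trend was removed and 0.20 without libraries 6 and 8. Their mRNA levels say nothing of the activity of these proteins, which is known to be set by processing and stability.

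Ubiquitin genes and E1 enzymes had estimates of both signs. Of 6 ubiquitin genes and E1 enzymes, 3 were above 0 (median 0.06), against 43.9% of all genes. At an unadjusted p under 0.05 in limma, 2 were higher and 1 lower, against 3.21% and 5.36% of all genes. Ubb had 349 ± 33.7 FPKM in PBS (SD, n = 4) and 433 ± 65.5 FPKM with ammonium acetate (SD, n = 5), a log2 difference of 0.30, or 0.15 without libraries 6 and 8. Uba6, an E1 enzyme, had a log2 difference of −0.32, or −0.08 without them. The ubiquitin genes share coding sequence, so how reads were divided between them is uncertain, and none passed the limma adjusted threshold. The immunoproteasome genes Psmb8, Psmb9 and Psmb10 had log2 differences of −0.40, −0.44 and −0.17, and all 3 were highest in PBS library 8. Without that library the differences were −0.11, −0.19 and −0.06. Psmb8 was 0.554% to 2.61% of Psmb5 in PBS and 0.284% to 0.913% with ammonium acetate, so the constitutive subunits predominated in every library.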

How the data were processed

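RNA from gastrocnemius was sequenced in 4 PBS and 5 ammonium acetate libraries. The authors deposited 1 table of FPKM values. Per the submitters' processing notes, mm10 was the build and the tools included HTSeq, DESeq2, STAR and TopHat, with no roles. Annotation, strand setting and treatment of multi-mapping reads are not known here. FPKM times gene length came out as whole reads within 0.05 for 100% of values, giving 24930547 to 41780251 reads per library. No 2 libraries held identical values. Coordinates are those of the deposited table.

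Genes with a mean of at least 0.5 FPKM (11337) were fitted on log2(FPKM + 0.5) by limma (version 3.58.1, run in R version 4.3.3), whose prior variance followed the mean level. Tests were two-sided, p-values were adjusted over all these genes by Benjamini and Hochberg's method, and the threshold was 0.05. This scale understates changes of low genes. The script was tested on simulated data. Alternatives were the pseudocount, the filter, scaling, voom on recovered reads, array weights, removal of the length trend (lowess, span 0.3), a replicate block, and libraries left out. Medians and counts of lists have no test. Members and lists were chosen with earlier results of these data known. Genes given by library were, by rule, the 4 core and 4 cap members of smallest p, the activators, the cutting subunits, the highest and lowest member of each class, members below 0, Psmd4 and Psmd14 (Psmd1 and Psmd2 were added after their values were seen); of other lists, the 2 genes of smallest p in each direction with Nfe2l1 and Nfe2l2. Some genes that this rule names are not reported here. Tables and figures used Python 3.11.15, pandas 2.3.3, numpy 2.4.6 and matplotlib 3.10.9.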

Additional observations from a re-analysis of the deposited data

Results flagged for a closer look

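In 4 of the 76 sets of values of 1 member in 1 group, a library stood far from the others of its group, where chance gives about 1 in 20. Psmb6 was highest in PBS library 4, at 109.9 FPKM against 99.7 in the next, and Psmd11 was lowest in the same library, at 28.3 FPKM against 33.3. Psmd1 was highest in PBS library 7, at 54.8 FPKM against 47.4. Psmc4 was highest in ammonium acetate library 8, at 51.3 FPKM against 43.0.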

How the results depend on the processing

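No gene and no member passed the adjusted threshold in limma under any of 21 alternative fits, and the smallest adjusted p of a member was 0.321. Of 38 members, 26 kept the sign of their log2 fold change in all of them. Members higher at an unadjusted p under 0.05 numbered 3, and 6 with no filter, 5 with array weights, 1 with quantile scaling, 0 without ammonium acetate libraries 6 and 8 and 0 with the replicate block. With 1 library left out they numbered 0 to 10, with 0 without PBS library 8 and without ammonium acetate library 6 and 10 without ammonium acetate library 4. Class medians with 1 library left out were 0.13 to 0.26 for the core, 0.10 to 0.17 for the cap and −0.06 to 0.04 for the activators. Activators above 0 were 4 with median-of-ratios scaling, 0 with quantile scaling, 1 with the block, 1 with array weights and 1 to 3 with 1 library left out. The filter at 2 FPKM gave a ubiquitin median of 0.30 and no value for Psmg3, Psmb8, Psmb9 and Uba6. Associated cap proteins had medians of 0.12 (median-of-ratios) and 0.11 (length trend removed), the chaperones 0.0222 (array weights) and the cap 0.0457 (quantile). Among the members and the other genes whose log2 differences are given above, estimates whose sign turned lay between −0.11 (AI314180) and 0.13 (Psmb2) in the fit reported. The median over the members was 0.15 in that fit. Other genes of the lists were not followed through every fit, and Ubqln2, a shuttle, went from −0.23 to 0.05 without libraries 6 and 8. Under median-of-ratios scaling Psme1 was 0.00941, Psme4 0.000277 and Nfe2l2 0.00217. With quantile scaling Psmc6 was −0.000124, Psmd1 −0.0475, Psmd2 −0.0708, Psmd11 −0.0109, Psme2 −0.0210 and Psme3 −0.00575. With the length trend removed Psma5 was −0.0138, Psmb2 −0.0126, Psmc6 −0.00366, Psme2 −0.111, Psme4 0.148 and AI314180 0.117. Without libraries 6 and 8 Psma5 was −0.0277, Psmd13 −0.00853, Psmd10 −0.0638, Psme2 −0.112, Psme4 0.0220, AI314180 0.00100 and Usp14 0.00605. With array weights Psmd10 was −0.0649, Psmd11 −0.00406, Psme2 −0.106, Psme3 −0.00212 and Psme4 0.0292. With 1 library left out Psmd1 ran from −0.0576 to 0.0563, Psmd2 −0.0377 to 0.0525, Psmd11 −0.0224 to 0.114, Psme1 −0.131 to 0.0120, Psme2 −0.0471 to 0.121 and Nfe2l2 −0.15 to 0.0483. With the replicate number as a block, which leaves ammonium acetate library 6 without a partner, the class medians were 0.16 for the core, 0.11 for the cap and −0.03 for the activators, Psmd1 was −0.00852 and Psme2 −0.00383. Libraries that shared a number did not deviate together (correlations −0.28, −0.07, −0.34 and −0.28). What the numbers mark is not stated, and these correlations cannot decide whether they pair samples. The causes of these shifts were not tested.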
